A study of Mus musculus with 7 samples.

Results

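Horizontal cells are the inhibitory interneurons of the outer retina, and 8 genes known for their specification or identity were followed by name: *Foxn4*, *Ptf1a*, *Onecut1*, *Onecut2*, *Onecut3*, *Prox1*, *Lhx1* and *Calb1*. They are 8 of the 48440 genes counted, and all 8 were among the 20019 genes with enough reads to be tested. Horizontal cells are among the early-born neurons of the mouse retina and arise from progenitors that express *Foxn4*, which activates *Ptf1a*. *Ptf1a* commits precursors to the horizontal and amacrine fates, the Onecut factors and *Prox1* act in the horizontal cell lineage, and *Lhx1* directs the cells to their layer. Most of these genes are not restricted to horizontal cells, since amacrine, ganglion or progenitor cells also express several of them.

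The measurements were bulk mRNA-seq of E16 mouse retina, made to ask how loss of the splicing regulator *Ptbp1* from retinal progenitors alters gene expression. Per the labels, all 3 genotypes carry the *Chx10-Cre* transgene, a Cre-GFP fusion driven in retinal progenitors by the *Chx10* promoter. The control (WT) has no floxed allele, Het is *Chx10-Cre;Ptbp1 lox/+* and KO is *Chx10-Cre;Ptbp1 lox/lox*, in which loxP sites flank the promoter and the first exon of *Ptbp1*. Cells that do not descend from Cre-expressing progenitors, such as vessels and microglia, keep the gene. Each library is a pool: 6 retinas for the single WT library, 5, 5 and 6 for Het1 to Het3, and 4, 4 and 6 for KO1 to KO3. The labels do not say that the pools came from separate litters, so p-values measure the spread between pools. RNA was extracted with TRIzol by the labels and with a column kit by the methods. The total count per library was 148690857 in WT, 171117305, 120593979 and 152970301 in Het1 to Het3, and 133765170, 131005766 and 129073579 in KO1 to KO3. Levels are in CPM, which are counts scaled to a common library size after TMM normalization. WT has 1 library, so its values carry no error and no test.

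*Ptbp1* followed the genotype labels. It was at 381 CPM (WT), 210, 219 and 234 CPM (Het1 to Het3) and 27.9, 6.04 and 46.9 CPM (KO1 to KO3). The KO libraries were all below the Het libraries, at -3.04 on the log2 scale (standard error 0.635, adjusted p = 0.0316, edgeR's quasi-likelihood test). Among the KO libraries, KO2 kept the least *Ptbp1* mRNA, 2.73% of the Het mean, and KO3 the most, 21.2%. The difference lay between -3.70 and -2.56 in 13 alternative settings, but the adjusted p (edgeR) was above 0.05 without Het1 (0.0519), Het2 (0.0964), Het3 (0.0934) or KO1 (0.0744).

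Some libraries stood apart in genes of tissues around the retina. Of 12 skeletal muscle genes, 11 were tested and 0 passed by edgeR or DESeq2 (9 at an unadjusted edgeR p below 0.05), but their summed level was 348 CPM in Het1 against 8.20 to 10.5 CPM in the other libraries. *Myh3*, the most abundant, was at 88.8 CPM there. Pigment cell genes, led by *Pmel*, summed to 524 CPM in Het1 and to 20.5 to 60.5 CPM elsewhere, with 0 of 7 tested genes past either test (3 at an unadjusted edgeR p below 0.05). Lens genes, led by *Cryaa* in the mean over 7 libraries though not in KO1 or KO2, summed to 22.1 CPM (WT), 40.8, 80.9 and 112 CPM (Het1 to Het3) and 4.53, 10.2 and 79.2 CPM (KO1 to KO3). *Lim2* was at 0 in all libraries. Of 15 tested lens genes 2, *Foxe3* and *Cryab*, passed as lower in KO, against 3.21% of all genes tested. Of these 15, 0 were called without Het2, Het3 or KO2 and 5 without KO3. Erythroid genes, led by *Hbb-bs* in the mean over 7 libraries, were low in KO1 and KO2, at 37.1 and 24.5 CPM summed against 189 to 531 CPM in the other libraries. All 8 erythroid genes had a negative log2 fold change, and 0 passed the edgeR test (3 at an unadjusted p below 0.05), whereas DESeq2 called 2 and 8 were called without KO3.

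Between Het and KO, *Calb1* rose and the other 7 horizontal cell fate genes did not pass the test. A gene was counted as higher or lower at an adjusted p below 0.05 and a fold change above 1.2. By this rule 1 of the 8 passed, against 7.22% of all genes tested, with 1 of 8 higher against 4.01% of all genes and 0 of 8 lower against 3.21% (edgeR's quasi-likelihood test). At an unadjusted p below 0.05 there were 5 of the 8, and 5952 of all 20019 genes. The share among the 8 rests on a single gene, *Calb1*. Its call was lost without Het2, Het3, KO1 or KO2, with no filter on low counts, and in edgeR's test against the fold limit itself (glmTreat). Het and KO were fully separated in 5 of the 8 (36.3% of all genes): for *Ptf1a*, *Prox1*, *Lhx1* and *Calb1* all KO libraries exceeded all Het libraries, and for *Onecut3* all were below. The log2 fold changes were positive in 4 and negative in 4, with a median of 0.039 beside -0.0047 over all genes tested. In bulk retina, fewer cells of a type and less RNA per cell cannot be told apart.

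**Figure D1:**
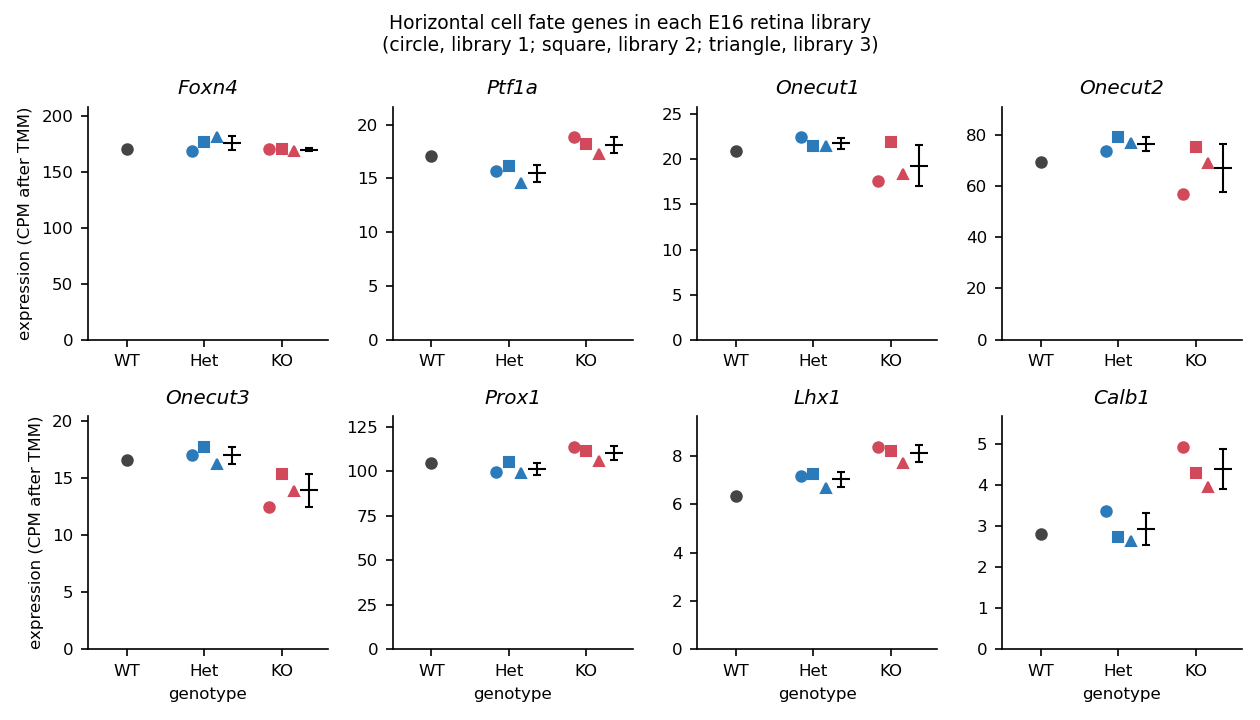
Expression (CPM after TMM) of each of the 8 genes in the 7 libraries, 1 point a library, with the mean and SD over 3 libraries beside the Het and KO points. *Calb1* lay between 3.96 and 4.93 CPM in KO and between 2.64 and 3.37 CPM in Het, while *Foxn4* lay between 168.8 and 170.9 CPM in KO and between 168.6 and 180.9 CPM in Het.

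*Foxn4* (ENSMUSG00000042002.11; GRCm38 chromosome 5, 114254164 to 114273807, minus strand) encodes the forkhead factor that gives progenitors the competence to make horizontal and amacrine cells. It was measured at 170.5 CPM (WT), 168.6, 176.8 and 180.9 CPM (Het1 to Het3) and 170.1, 170.9 and 168.8 CPM (KO1 to KO3). The genotypes overlapped, and the KO libraries lay closer together than the Het libraries. The Het mean was 175 ± 6.25 CPM and the KO mean 169.9 ± 1.04 CPM (SD, n = 3 each). On the log2 scale the difference of KO from Het was -0.046 (95% interval -0.13 to 0.035, adjusted p = 0.399, edgeR), bounded more narrowly than that of any of the other 7 genes. This difference was -0.074 without Het1 and -0.023 without Het3.

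*Ptf1a* (ENSMUSG00000026735.2; chromosome 2, 19445663 to 19447501, plus strand) encodes the bHLH factor that acts below *Foxn4* and without which horizontal cells are not made. Its level was 17.1 CPM (WT), 15.7, 16.1 and 14.6 CPM (Het1 to Het3) and 18.8, 18.2 and 17.3 CPM (KO1 to KO3). The lowest KO library exceeded the highest Het library, and the WT library lay between the groups, nearer to the KO mean. The log2 fold change was 0.23 (95% interval 0.085 to 0.37, adjusted p = 0.0564, edgeR). The adjusted p was below 0.05 by DESeq2 (0.0184) and in edgeR with at least 10 counts in every library (0.0460) or with the 6 Het and KO libraries alone (0.0499), but the fold change stayed under the limit of 1.2 in each of 13 alternative settings. Its antisense neighbour *Ptf1aos* was at no more than 0.158 CPM in any library.

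The Onecut genes encode cut-homeodomain factors that act in horizontal cell genesis and maintenance and are also expressed in ganglion cells. *Onecut1* (ENSMUSG00000043013.10; chromosome 9, 74861921 to 74891781, plus strand) was at 20.9 CPM (WT), 22.4, 21.4 and 21.4 CPM (Het1 to Het3) and 17.6, 21.9 and 18.3 CPM (KO1 to KO3). *Onecut2* (ENSMUSG00000045991.18; chromosome 18, 64340020 to 64400987, plus strand) was at 69.4 CPM (WT), 73.6, 78.9 and 76.9 CPM (Het1 to Het3) and 56.8, 75.4 and 69.0 CPM (KO1 to KO3). In both genes KO2 reached the Het range while KO1 was the lowest of the 7 libraries. *Onecut3* (ENSMUSG00000045518.8; chromosome 10, 80494835 to 80517276, plus strand) was at 16.6 CPM (WT), 17.0, 17.8 and 16.2 CPM (Het1 to Het3) and 12.5, 15.4 and 13.9 CPM (KO1 to KO3). Here the KO libraries lay below every Het library and the WT library, again with KO1 lowest and KO2 highest.

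None of the Onecut genes passed the test. The log2 fold change was -0.17 for *Onecut1* (95% interval -0.38 to 0.032, adjusted p = 0.228, edgeR) and -0.19 for *Onecut2* (95% interval -0.42 to 0.044, adjusted p = 0.245, edgeR). For *Onecut3* it was -0.29 (95% interval -0.49 to -0.086, adjusted p = 0.0756, edgeR). Without KO1 the log2 fold change was -0.11 for *Onecut1* and -0.082 for *Onecut2*, and without KO2 it was -0.28 for each. DESeq2 counted *Onecut3* as lower in KO (log2 fold change -0.29, adjusted p = 0.0109), in a test that called 11.6% of the genes given an adjusted p, and it was the one setting of 13 that did. Spread between libraries was wider in KO than in Het for these genes, with an SD of 11.96%, 14.0% and 10.5% of the KO mean for *Onecut1*, *Onecut2* and *Onecut3* against 2.65%, 3.53% and 4.50% of the Het mean. Summed over the Onecut genes, expression was 107 CPM (WT), 113, 118 and 115 CPM (Het1 to Het3) and 87.0, 113 and 101 CPM (KO1 to KO3). Of 12 ganglion cell genes tested beside them, 1 was higher in KO (*Thy1*, log2 fold change 0.99) and 2 were lower (*Isl1*, -0.68, and *Gap43*, -0.42). Over all genes tested, 4.01% were higher and 3.21% lower. Among the 12, 10 had a negative log2 fold change, and the median was -0.14. DESeq2 called 5 of the 12, and edgeR 1 when Het2 or Het3 was left out and 1 with glmTreat. Their summed level was 3269 CPM (WT), 3381, 3328 and 3252 CPM (Het1 to Het3) and 2937, 3077 and 2707 CPM (KO1 to KO3), *Ina* being the most abundant in the mean over 7 libraries. Their part in the Onecut values was not tested.

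*Prox1* (ENSMUSG00000010175.13; chromosome 1, 190118035 to 190170714, minus strand) encodes a homeodomain factor that drives progenitors out of the cell cycle and promotes the horizontal cell fate. It was at 105 CPM (WT), 99.4, 105 and 98.7 CPM (Het1 to Het3) and 114, 111 and 106 CPM (KO1 to KO3). The KO libraries were above all Het libraries, though KO3 was near Het2, and the WT library lay within the Het range. The log2 fold change was 0.12 (95% interval 0.027 to 0.22, adjusted p = 0.0976, edgeR). *Prox1* is also expressed in lens fibres and lymphatic vessels. The lens genes were lowest in KO1 and KO2, the libraries with the most *Prox1*, and their part in its value was not tested. The opposite-strand gene *Prox1os* was at 1.31 to 1.69 CPM, counted apart from *Prox1*. The library kit keeps strand, but whether the counting used it is not stated, so reads from where the 2 genes overlap may not have been told apart.

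*Lhx1* (ENSMUSG00000018698.15; chromosome 11, 84518284 to 84525535, minus strand) encodes the LIM-homeodomain factor that places horizontal cells in their layer and marks the axon-bearing type found in mouse. It was at 6.35 CPM (WT), 7.16, 7.26 and 6.69 CPM (Het1 to Het3) and 8.38, 8.22 and 7.72 CPM (KO1 to KO3). The KO libraries were above the Het libraries, and the WT library was the lowest of the 7. The KO mean was 128% of the WT value. The log2 fold change from Het to KO was 0.20 (95% interval 0.037 to 0.37, adjusted p = 0.110, edgeR).

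*Calb1* (ENSMUSG00000028222.2; chromosome 4, 15881264 to 15908064, plus strand) encodes calbindin, the calcium buffer used as a marker of horizontal cells and also made by some amacrine and ganglion cells. It was at 2.82 CPM (WT), 3.37, 2.74 and 2.64 CPM (Het1 to Het3) and 4.93, 4.29 and 3.96 CPM (KO1 to KO3). These levels rest on 327 to 654 reads a library. All KO libraries were above all Het libraries and the WT library. From a Het mean of 2.92 ± 0.392 CPM it rose to a KO mean of 4.39 ± 0.498 CPM (SD, n = 3 each). This is a log2 fold change of 0.59 with a 95% interval of 0.26 to 0.92 (standard error 0.137, adjusted p = 0.0423, edgeR). The KO mean was 156% of the WT value. An exact permutation test of the single gene gave a two-sided p of 0.1, the smallest that 3 libraries against 3 allow, and the same p as for *Ptf1a*, *Onecut3*, *Prox1* and *Lhx1*.

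*Calb1* was close to the threshold. It was lost without Het2 (adjusted p = 0.138, edgeR), Het3 (adjusted p = 0.135, edgeR), KO1 (adjusted p = 0.0862, edgeR) or KO2 (adjusted p = 0.113, edgeR), and with no filter on low counts (adjusted p = 0.0514, edgeR). Without Het1, the library with muscle and pigment cell genes, it was called (log2 fold change 0.71, adjusted p = 0.0346, edgeR). Across 13 settings the adjusted p ran from 0.00238 to 0.138 and the log2 fold change from 0.50 to 0.71. It did not pass glmTreat, edgeR's test against the fold limit itself. Of 15 amacrine cell genes, 9 were higher in KO and 1 was lower (4.01% and 3.21% of all genes tested), with a median log2 fold change of 0.50. This list was chosen with earlier results of these data known, so its count is not independent of them. The largest log2 fold changes among the called genes were *Tfap2e* (3.83), *Bhlhe23* (-1.88), *Neurod2* (1.48) and *Neurod6* (0.99). *Tfap2e* had 1 to 9 reads in each Het library and 41 to 122 in each KO library, so its fold change rests on a base near 0. Over the 7 libraries *Bhlhe23* was at 0.278 to 1.29 CPM, *Neurod2* at 0.794 to 4.06 CPM and *Neurod6* at 0.269 to 0.709 CPM. *Ebf3*, the most abundant, was at -0.30 (adjusted p = 0.0503, edgeR). *Ebf3* was counted as lower in KO in 7 of 13 alternative settings. The amacrine genes summed to 634 CPM (WT), 663, 651 and 634 CPM (Het1 to Het3) and 772, 742 and 711 CPM (KO1 to KO3). Only 2 of the 15 were called without Het2, 3 without Het3 and 5 without KO2. Their part in the *Calb1*, *Ptf1a* and *Prox1* values was not tested.

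The WT library was nearer to the Het mean in 5 of the 8 genes and nearer to the KO mean in 3, *Foxn4*, *Ptf1a* and *Onecut2*. For *Onecut3*, *Prox1* and *Calb1* it lay within the Het range and outside the KO range. These are values of 1 library and were not tested. Among the KO libraries, KO1 was highest for *Ptf1a*, *Prox1*, *Lhx1* and *Calb1* and lowest for *Onecut1*, *Onecut2* and *Onecut3*. KO2, which had the least *Ptbp1*, was highest for the Onecut genes.

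To compare levels between genes, CPM was divided by the length of each gene's merged exons in kb. *Foxn4* had the highest level per length, at 51.1 CPM per kb on average over the 7 libraries. *Prox1* (12.6 CPM per kb) and *Ptf1a* (11.2 CPM per kb) came next, then *Onecut1* (5.01 CPM per kb), *Onecut2* (4.40 CPM per kb) and *Onecut3* (3.27 CPM per kb), with *Lhx1* (1.82 CPM per kb) and *Calb1* (0.730 CPM per kb) last. The order was the same in all 7 libraries, in which the genes were measured together. *Onecut1* and *Onecut2* were the one pair of neighbours whose KO values overlapped, at 4.69 ± 0.561 and 4.13 ± 0.580 CPM per kb (SD, n = 3), while within each of the 7 libraries *Onecut1* was the higher. The merged exons of *Onecut2* span 16234 bases and those of *Ptf1a* 1508 bases, and an exon that is not used in the retina lowers the level per length.

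For each gene, the gene of most similar profile was taken among 13749 genes, by Pearson's r of log2(CPM + 1) over the 7 libraries, which share their genotypes. These were *Nup133* for *Foxn4* (r = 0.951), *Cops8* for *Ptf1a* (r = 0.989), *H3f3aos* for *Onecut1* (r = 0.987), *Tulp4* for *Onecut2* (r = 0.968) and *Dhx57* for *Onecut3* (r = 0.994). *Cfap36* was nearest to *Prox1* (r = 0.990), *Armc2* to *Lhx1* (r = 0.994) and *Tnc* to *Calb1* (r = 0.998). *Cops8* had an adjusted p of 0.0233 (edgeR) with a log2 fold change of 0.22, under the fold limit. Of the 8, only *Tnc* passed both limits between Het and KO (log2 fold change 1.97, adjusted p = 0.0228, edgeR), and it did not pass without Het2, Het3 or KO2. Without the WT library, 1 of the 8 nearest genes, *H3f3aos*, was the nearest again.

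Regulators that act upstream, beside or downstream of these genes were read from a list of 18, of which 17 were tested. In KO, 3 were higher and 1 was lower (4.01% and 3.21% of all genes tested), with a median log2 fold change of 0.064. *Atoh7*, the bHLH gene required for ganglion cells and expressed in progenitors that also give horizontal cells, was at 131, 147 and 158 CPM in Het1 to Het3 and at 72.1, 86.6 and 89.0 CPM in KO1 to KO3 (log2 fold change -0.81, adjusted p = 0.00783, edgeR). *Neurod1*, a bHLH gene of photoreceptor and amacrine precursors, rose by a log2 fold change of 0.32 (adjusted p = 0.00558, edgeR). *Tfap2a* and *Tfap2b*, AP-2 factors that act below *Ptf1a* in horizontal and amacrine cells, rose by 0.46 (adjusted p = 0.0319, edgeR) and 0.54 (adjusted p = 0.00779, edgeR) on the log2 scale. *Tfap2b* went from 214, 199 and 189 CPM in Het1 to Het3 to 314, 285 and 275 CPM in KO1 to KO3. *Rorb*, the nuclear receptor upstream of *Foxn4*, was the most abundant of the list in the mean over 7 libraries, though *Pax6* exceeded it in WT and in each Het library. It had a log2 fold change of 0.080 (adjusted p = 0.235, edgeR). *Atoh7*, *Neurod1* and *Tfap2b* passed in each of the 13 alternative settings, and *Tfap2a* was lost without Het2 (adjusted p = 0.114, edgeR), Het3, KO1 or KO2. With glmTreat 1 regulator passed.

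Markers of more mature horizontal cells, many shared with other neurons, formed a list of 16. Of the 15 tested, 4 were higher and 1 was lower in KO (4.01% and 3.21% of all genes tested). The median log2 fold change was 0.28. *Gad1*, an enzyme of GABA synthesis also made by amacrine cells, was at 3.57 CPM (WT), 5.06, 3.88 and 3.85 CPM (Het1 to Het3) and 12.3, 11.8 and 10.9 CPM (KO1 to KO3). Its log2 fold change was 1.45 (adjusted p = 0.00323, edgeR). The neurofilament gene *Nefh* (0.54), *Megf10* (0.45), which spaces horizontal cell bodies, and *Ndrg1* (0.37) also rose on the log2 scale, and the cotransporter gene *Slc12a7* fell by 0.38. *Nefm*, the most abundant, had a log2 fold change of -0.12 (adjusted p = 0.201, edgeR). *Gad2*, more abundant than *Gad1* with means of 66.2 CPM in Het and 73.7 CPM in KO, did not pass (log2 fold change 0.16, adjusted p = 0.137, edgeR). Nor did *Slc32a1* (log2 fold change 0.49, adjusted p = 0.0702, edgeR). *Gja10*, which encodes the connexin of horizontal cells, was at 0.222 to 0.377 CPM and *Pvalb*, which was not tested, at no more than 0.0530 CPM. *Gad1* and *Megf10* passed in each of the 13 alternative settings. *Nefh* was lost without any of Het1, Het2, Het3, KO1 and KO2, *Ndrg1* without Het1, Het2, Het3 or KO2, and *Slc12a7* without Het2, KO1 or KO2. The count of 5 was 2 without Het2 or KO2, 3 without Het1, Het3 or KO1, and 1 with glmTreat.

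**Figure D2:**
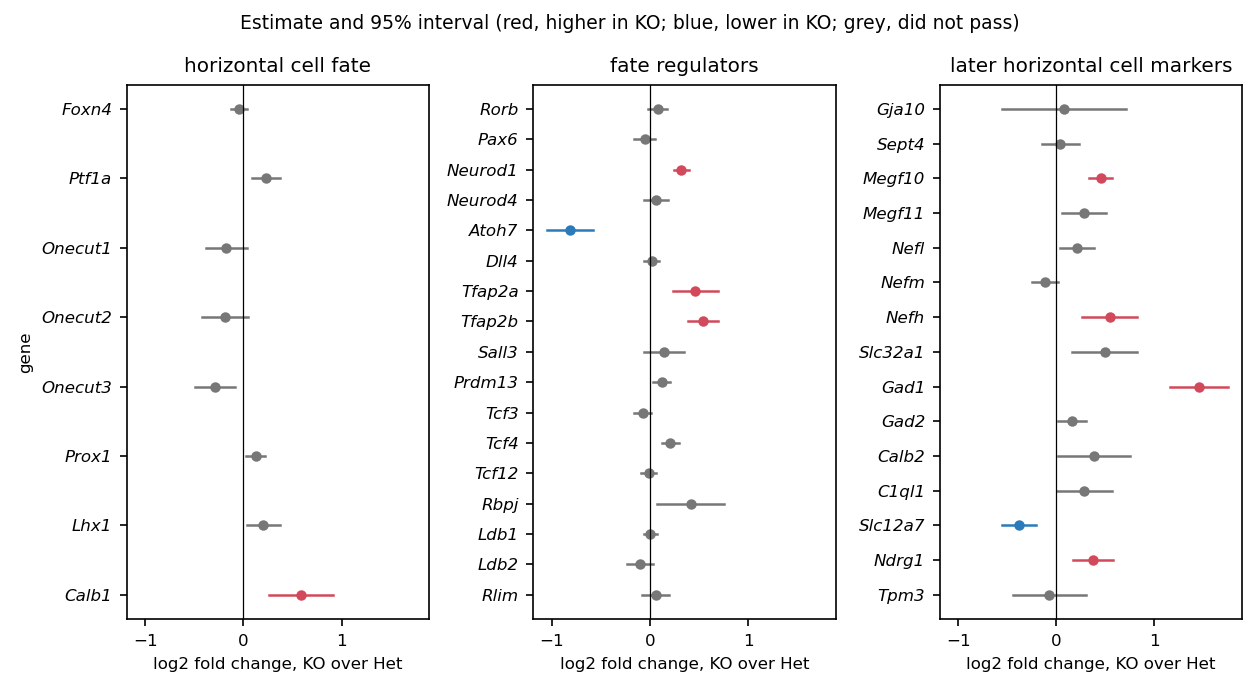
Log2 fold change of KO over Het for the 8 horizontal cell fate genes, the 17 tested regulators and the 15 tested later markers, as points with 95% intervals from edgeR's quasi-likelihood fit. *Calb1* (0.59) was the one fate gene that passed the test, and *Gad1* (1.45) and *Atoh7* (-0.81) lay farthest from 0.

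Other cell types in the pools were followed with lists of their own. Over all genes tested, 4.01% were higher and 3.21% lower in KO. Progenitor genes, led by *Ccnd1*, had 1 of 12 higher (*Hes5*) and 1 lower (*Sfrp2*), with a median log2 fold change of 0.0051. Of these 12, 0 were called without Het2, Het3 or KO2. Cone precursor genes, led by *Otx2* in the 7-library mean, had 4 of 9 tested genes higher (*Opn1sw*, *Gnat2*, *Prdm1* and *Gngt2*) with a median of 0.42. That median is the value of *Arr3*, which was at no more than 0.152 CPM in any library and did not pass. *Thrb* (-0.012), *Rxrg* (-0.035), *Otx2* (0.12) and *Crx* (0.20) did not pass either. The cone precursor count was 1 without Het2 or Het3 and 2 without KO1 or KO2. Of 9 endothelial genes, 7 had a negative log2 fold change, with a median of -1.28, and 1 passed the test, *Kdr*, which was higher and which progenitors also express. In the 7 with a negative value, KO1 and KO2 lay below every Het library, and KO3 lay above KO1 and KO2. *Cdh5*, for example, was at 6.80, 3.21 and 9.77 CPM in Het1 to Het3 and at 0.988, 0.555 and 4.41 CPM in KO1 to KO3. DESeq2 called 3 of the 9, and 8 were called without KO3. Of 8 microglial genes, led by *Csf1r*, 2 were higher, *Cx3cr1* and *Ptprc*. DESeq2 called 7 of the 8, and edgeR called 0 when Het1, Het2, KO2 or KO3 was left out. Of the called genes named here for other cell types, *Isl1*, *Bhlhe23* and *Prdm1* passed in each of the 13 alternative settings, and all the others were lost without Het2.

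*Ptf1a*, *Prox1* and *Lhx1* were higher in all KO libraries and *Onecut1* was not, but none of them passed the test. Het and KO were fully separated in 36.3% of all genes tested. The 250 bases before the start of *Ptf1a*, *Prox1*, *Lhx1* and *Onecut1* are shown, from RefSeq on GRCm38.p6. The motifs searched for were chosen after the fold changes were seen. Of the 8 genes, 5 matched the promoter table. The windows were searched on both strands for the E-box of bHLH factors (CANNTG), the Onecut core (ATCAAT), the Rbpj core (TGGGAA) and the nuclear receptor core (AGGTCA), which are found before the start in 66.2%, 6.72%, 21.6% and 14.0% of 32851 promoters. Capitals mark each match, and no matches overlapped. The *Ptf1a* window (chr2:19445413-19445662, plus strand) held 1 Rbpj core and the *Onecut1* window (chr9:74861671-74861920, plus strand) 2 E-boxes. *Prox1* has 2 windows in the table: the one shown (chr1:190170828-190171077, minus strand) held 2 E-boxes and no Rbpj core, and the other (chr1:190169516-190169765, minus strand) held 1 Rbpj core and no E-box. The *Foxn4* window, not shown, held 0 of the motifs. In the *Lhx1* window (chr11:84525535-84525784, minus strand) 0 of the motifs were found, which says only that these letters are not there. A match is a description of the sequence and no measure of binding.
Ptf1a: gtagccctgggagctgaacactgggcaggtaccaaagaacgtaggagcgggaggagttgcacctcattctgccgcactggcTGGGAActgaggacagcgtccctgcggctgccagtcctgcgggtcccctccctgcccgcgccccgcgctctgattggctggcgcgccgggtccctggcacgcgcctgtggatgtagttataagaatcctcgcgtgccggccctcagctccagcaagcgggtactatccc
Prox1: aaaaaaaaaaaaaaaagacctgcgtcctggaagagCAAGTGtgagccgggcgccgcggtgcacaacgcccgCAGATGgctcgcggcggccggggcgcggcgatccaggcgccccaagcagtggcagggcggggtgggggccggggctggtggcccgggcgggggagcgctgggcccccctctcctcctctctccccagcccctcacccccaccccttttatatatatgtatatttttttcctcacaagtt
Lhx1: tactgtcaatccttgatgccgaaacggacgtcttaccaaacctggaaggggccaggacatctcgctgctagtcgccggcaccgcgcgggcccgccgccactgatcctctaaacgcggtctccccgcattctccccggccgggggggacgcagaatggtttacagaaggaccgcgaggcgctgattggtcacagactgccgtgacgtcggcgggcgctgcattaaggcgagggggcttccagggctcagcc
Onecut1: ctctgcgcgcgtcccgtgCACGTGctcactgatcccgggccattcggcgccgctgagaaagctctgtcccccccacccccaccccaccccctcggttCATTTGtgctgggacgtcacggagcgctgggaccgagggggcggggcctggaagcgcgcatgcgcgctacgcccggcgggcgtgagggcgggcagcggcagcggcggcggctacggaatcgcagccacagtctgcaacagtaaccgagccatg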

How the data were processed

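STAR (alignment to GRCm38, mm10) and featureCounts (reads per gene) were the tools of the authors, who deposited raw counts. How the counting treated strand and multi-mapping reads is not given in the sources used here. Totals ranged from 120593979 to 171117305 counts.

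The fit used edgeR 4.0.16 under R 4.3.3 (filterByExpr, TMM, glmQLFit and glmQLFTest, a mean per genotype over all 7 libraries), with KO compared with Het and p-values adjusted by Benjamini-Hochberg over 20019 genes. The scripts were tested on simulated data. Coordinates and exon lengths come from GENCODE M21, whereas the study used M10. Symbols that had been turned into dates, 27 in all, were restored by identifier. Alternatives were DESeq2 1.42.0, other normalizations and filters, glmTreat, adjusted p alone, a block for the replicate number, the 6 libraries other than WT, and each library left out in turn. Their effect on the list counts and on the named genes other than the 8 was added after seeing the data.

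The genes and lists were chosen with earlier results of these data known. Named are all 8 genes, *Ptbp1*, the called genes with the 4 largest fold changes and the most abundant gene of each list, every called regulator and later marker, and the gene most like each member. *Ptf1aos*, *Prox1os*, *Gja10*, *Pvalb*, *Lim2*, *Pax6*, *Gad2*, *Slc32a1*, *Thrb*, *Rxrg*, *Crx* and *Arr3* were named after their values were seen. The motifs were chosen after seeing the fold changes. The authors' fold-change tables were not used.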

Additional observations from a re-analysis of the deposited data

How the results depend on the processing

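Over all genes, 1445 were called between Het and KO, 2070 by DESeq2, 217 with glmTreat and 2221 at an adjusted p below 0.05 alone, and from 386 (without Het2) to 1673 (without KO3) with a library left out. It was 496 without Het3 and 612 without KO2. Of the 8 horizontal cell fate genes, 1 was called, 2 by DESeq2 (*Calb1* and *Onecut3*), 0 with no filter on low counts and 0 with glmTreat, and 0 to 1 with a library left out (0 without Het2, Het3, KO1 or KO2). The cause was not tested. No log2 fold change of the 8 genes changed sign in 13 settings. The share of higher genes among those called was 55.5%, and higher genes were the minority without Het2 (43.3%), Het3 (49.6%), KO2 (46.1%) or KO3 (47.3%) and with glmTreat (48.4%).

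The deviations of same-numbered Het and KO libraries from their group means correlated at -0.113, 0.267 and 0.0460. Those of other-numbered libraries correlated at -0.361 to 0.230. Deviations within a group are tied by its mean, so these few values cannot show whether the replicate numbers pair the libraries. With the number as a replicate block, 1268 genes and 1 of the 8 were called, and 6 of 9 endothelial, 3 of 8 erythroid and 0 of 8 microglial genes.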

Other observations

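*Ptf1a*, *Onecut3*, *Prox1* and *Lhx1* had unadjusted p-values of 0.00709, 0.0122, 0.0196 and 0.0238 (edgeR) and did not pass after adjustment over 20019 genes. WT has 1 library, so differences from it were not tested. Whole retina gives no level per cell, and protein, splicing and cell counts were not analysed here. *Calb1* and *Lhx1* rest on the fewest reads of the 8 genes.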
